A study of Mus musculus with 18 samples.

Results

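The genes described here are 44 interferon-stimulated genes of the mouse, taken by name, and 43 of them have an entry among the 24062 gene symbols of the count table. Of these, 39 passed the filter on low counts and were tested. Ifit3b has no entry, and Ifit3, Ifi44, Oasl1 and Mx2 had too few counts to test. The list was drawn up by function, with no value from a comparison in its rule, but earlier results of these data were known when it was made.

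RNA was sequenced from progenitor lines made by introducing MLL-AF9, a leukemia fusion gene carried by a retrovirus, into bone marrow cells of mice depleted of lineage-positive cells. All lines carry a tamoxifen-inducible Cre recombinase at the Rosa locus, and all were grown in serum with IL-3, SCF and IL-6. The FF line has both Ddx41 alleles floxed, the Het line has 1 floxed and 1 normal allele, and the WT line has no floxed allele. Each line received 1 µM 4-hydroxytamoxifen (4OHT) or the ethanol vehicle for 48 h. The groups are therefore FF 4OHT (Ddx41-/-), FF ethanol (flox/flox), Het 4OHT (+/-), Het ethanol (+/flox), WT 4OHT (+/+) and WT ethanol (+/+). Each has 3 libraries lettered A to C, 18 in all. The labels state neither the number of lines behind a genotype nor that letters are separate cultures, so a p-value here reflects only library-to-library spread, possibly technical, and an effect of genotype cannot be told apart from an effect of the line.

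Type I interferons bind the IFNAR receptor, and the JAK1 and TYK2 kinases then activate the complex ISGF3, of which STAT2 and IRF9 are subunits. This complex binds interferon-stimulated response elements (ISREs) in the promoters of antiviral genes, while interferon gamma acts mainly through GAS elements. Myeloid cells are well known to keep a low level of these genes without infection, and DDX41 is a DEAD-box helicase studied in nucleic acid sensing and in myeloid neoplasms.

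Promoter windows reaching from 250 bases before to 50 after the start site were found for 33 of the 44 genes in the RefSeq table for GRCm38.p6. The ISRE letters GAAANNGAAA, searched on both strands, were in the windows of 15 of the 33 genes (45.5%), against 1079 of 27025 genes in the whole table (3.99%). The GAS letters TTCNNNGAA were present for 8 of the 33 (24.2%), against 2582 of the 27025 (9.55%), and both motifs for 4 (12.1%) against 166 (0.614%). In Bst2 the matches of both motifs overlap each other. A match is a description of letters in a window, not evidence of binding. The following stretches, 150 bases each ending at the base before the start site, are shown because they hold these letters in genes of 4 roles, with every ISRE match in capitals.
Isg15: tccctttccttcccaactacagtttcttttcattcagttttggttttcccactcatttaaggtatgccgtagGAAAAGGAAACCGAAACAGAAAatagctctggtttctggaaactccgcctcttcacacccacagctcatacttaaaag
Oas1a: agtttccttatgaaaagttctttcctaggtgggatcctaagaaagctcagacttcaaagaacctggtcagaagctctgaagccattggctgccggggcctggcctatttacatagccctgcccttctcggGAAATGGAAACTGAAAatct
Oas1g: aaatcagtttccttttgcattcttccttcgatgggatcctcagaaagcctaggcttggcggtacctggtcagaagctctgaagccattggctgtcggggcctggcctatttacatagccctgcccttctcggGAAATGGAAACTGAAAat
Rsad2: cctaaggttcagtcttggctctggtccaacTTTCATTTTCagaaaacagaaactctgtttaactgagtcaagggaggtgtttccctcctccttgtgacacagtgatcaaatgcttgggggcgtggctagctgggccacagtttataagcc
Igtp: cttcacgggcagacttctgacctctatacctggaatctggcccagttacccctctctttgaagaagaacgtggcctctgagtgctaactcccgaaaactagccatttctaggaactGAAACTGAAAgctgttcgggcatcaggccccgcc
The stretches lie at chr4:156200819-156200968 (minus), chr5:120907526-120907675 (minus), chr5:120887614-120887763 (minus), chr12:26456453-26456602 (minus) and chr11:58199406-58199555 (plus). The Isg15 stretch holds 3 overlapping matches, and the Oas1a and Oas1g stretches hold the same run of 2 overlapping matches close to the start site. The Rsad2 match lies on the opposite strand, more distant from the start site than any other match shown.

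Library totals ranged from 24730213 counts (FF_4OHT C) to 49277884 counts (Het_EtOH A), so that 1 count is worth 0.0194 to 0.0416 CPM (counts scaled to a common total, with TMM factors). Ddx41 itself had 14.6, 16.5 and 17.7 CPM in FF 4OHT libraries, against 112, 82.0 and 73.7 CPM in FF ethanol libraries. It had 58.4, 43.0 and 41.3 CPM in Het 4OHT libraries, against 71.3, 68.0 and 79.1 CPM in Het ethanol libraries, while all WT libraries lay between 75.5 and 93.0 CPM. The progenitor markers of the labelled cells were present, with 13 of 13 tested and 6557 to 15550 CPM summed per library. Some libraries stand apart. Libraries labelled WT_4OHT C and FF_EtOH C sat at the level of each other's line for Oas1g, with 1.404 CPM in FF_EtOH C, against 17.5 and 15.8 CPM in FF_EtOH A and B, and with 20.3 CPM in WT_4OHT C, against 0.897 and 0.725 CPM in WT_4OHT A and B. Some genes outside the list ran the same way, such as Cd79b, with 148 counts in FF_EtOH C, against 16 and 8 in FF_EtOH A and B. Cd79b had 16 counts in WT_4OHT C, against 264 and 362 in WT_4OHT A and B. Het_4OHT A had the lowest Trim30a (16.5 CPM) and Dtx3l (24.2 CPM) and the highest Ifi27 (62.2 CPM) of all 18 libraries. For genes named here, calls of the FF response or its difference from WT that were lost without both are given with that adjusted p.

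Expressed per kb of exon and averaged over the 6 groups, the tested genes spanned a wide range of levels. Psmb8 (42.7 CPM per kb), Bst2 (34.8 CPM per kb), Trim25 (19.4 CPM per kb) and Oas1a (16.7 CPM per kb) were the most abundant. Rtp4 (0.0960 CPM per kb), Oasl2 (0.0979 CPM per kb) and Ifit1 (0.141 CPM per kb) were the least abundant of those tested. Averaged over the 39 tested genes, log2 CPM was 3.42 to 3.79 in FF 4OHT libraries and 2.91 to 3.16 in FF ethanol libraries. The same average was 3.08 to 3.48 in Het 4OHT and 3.23 to 3.48 in Het ethanol libraries, and 2.93 to 3.22 in WT 4OHT and 2.80 to 3.03 in WT ethanol libraries. The heatmap of all tested genes shows the FF 4OHT block as the warmest part for Irf9, Oas2 and Irgm1, and the Het libraries as the warmest for antigen processing genes.

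**Figure D1:**
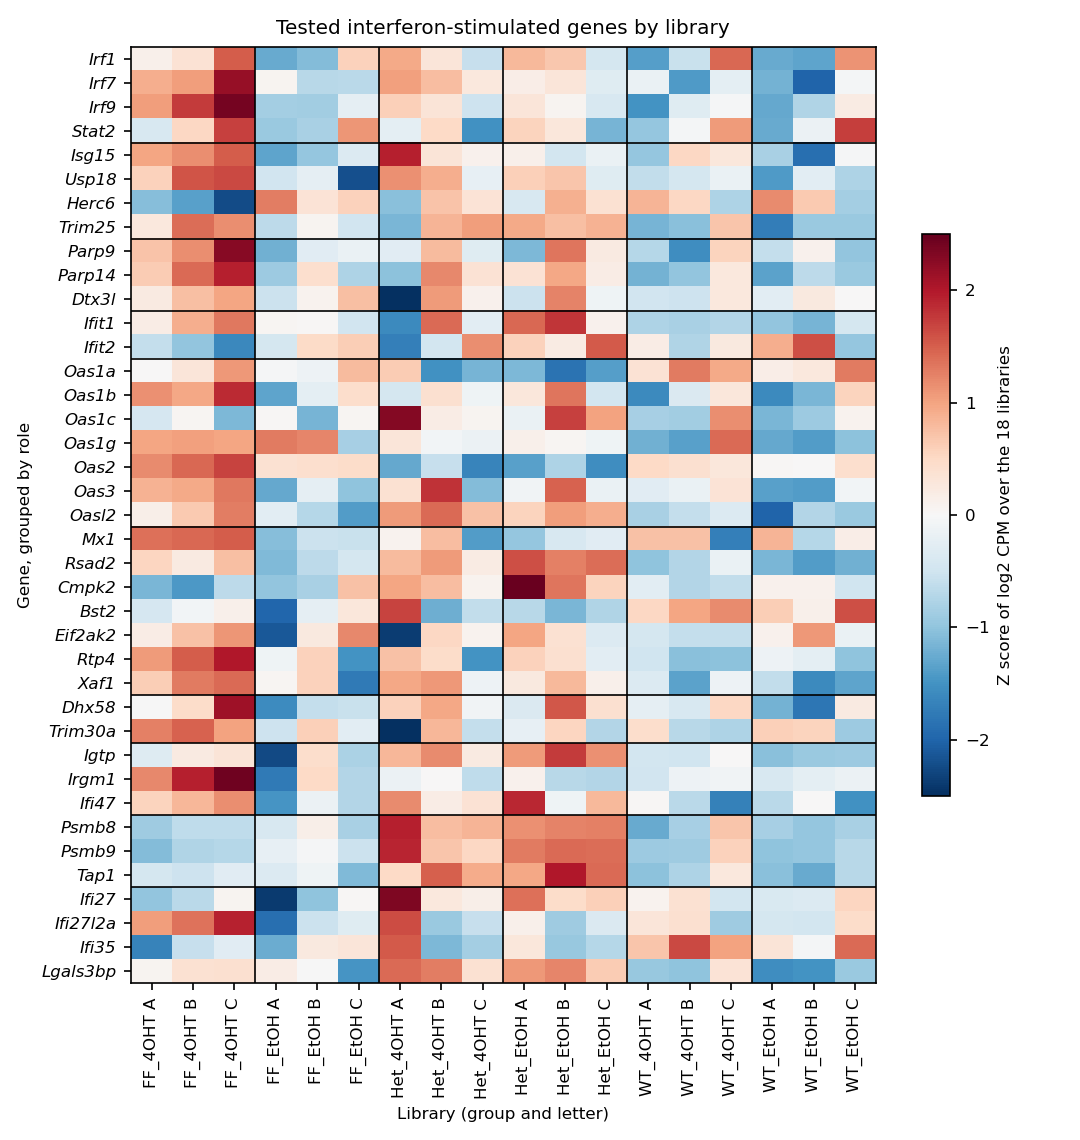
Z scores of log2 CPM over the 18 libraries (color) for the 39 tested genes (vertical axis, ruled off by role) in each library (horizontal axis, ruled off by group). FF_4OHT C was the highest of its 3 libraries for 32 of the 39 genes, and Psmb8, Psmb9 and Tap1 were high in the Het libraries of both treatments.

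In FF cells, 4OHT was followed by higher levels of 11 of the 39 tested genes and lower levels of 1 (edgeR quasi-likelihood test, adjusted p under 0.05). These were Irf7, Irf9, Isg15, Usp18, Parp14, Oas2, Oasl2, Mx1, Rsad2, Irgm1 and Ifi27l2a, with log2 fold changes between 0.78 (Parp14) and 2.03 (Usp18), and Herc6, which fell by 0.64 on the log2 scale. Over all 12859 genes tested, 5.16% were called higher and 8.29% lower, against 28.2% and 2.56% of the interferon-stimulated genes. The median log2 fold change was 0.51 over the 39 genes and -0.02 over all genes, and 32 of the 39 lay above 0. A gene with few counts could pass the filter through 1 group alone, so these counts describe the list and do not test it. The number called rests on single libraries, both for the list and for all genes. Over all genes, 663 higher and 1066 lower became 363 and 598 of 13012 without FF_4OHT B. They became 250 and 450 of 13040 without FF_4OHT C, so calls were lost over all genes as well. Without FF_EtOH A, B or C they were 397 and 785 of 13053, 412 and 855 of 13066, and 460 and 833 of 13058. Of the 39 genes, the number called was 6 without FF_EtOH A or FF_EtOH B, 4 without FF_EtOH C or FF_4OHT B, and 2 without FF_4OHT C. In these fits the list kept a smaller share of its calls than all genes did. Without FF_4OHT A the number called of the 39 was 9, against 474 higher and 710 lower of 13039 over all genes. Without both libraries that lie with the other line it was 7, against 4.43% higher and 7.52% lower over all genes.

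**Figure D2:**
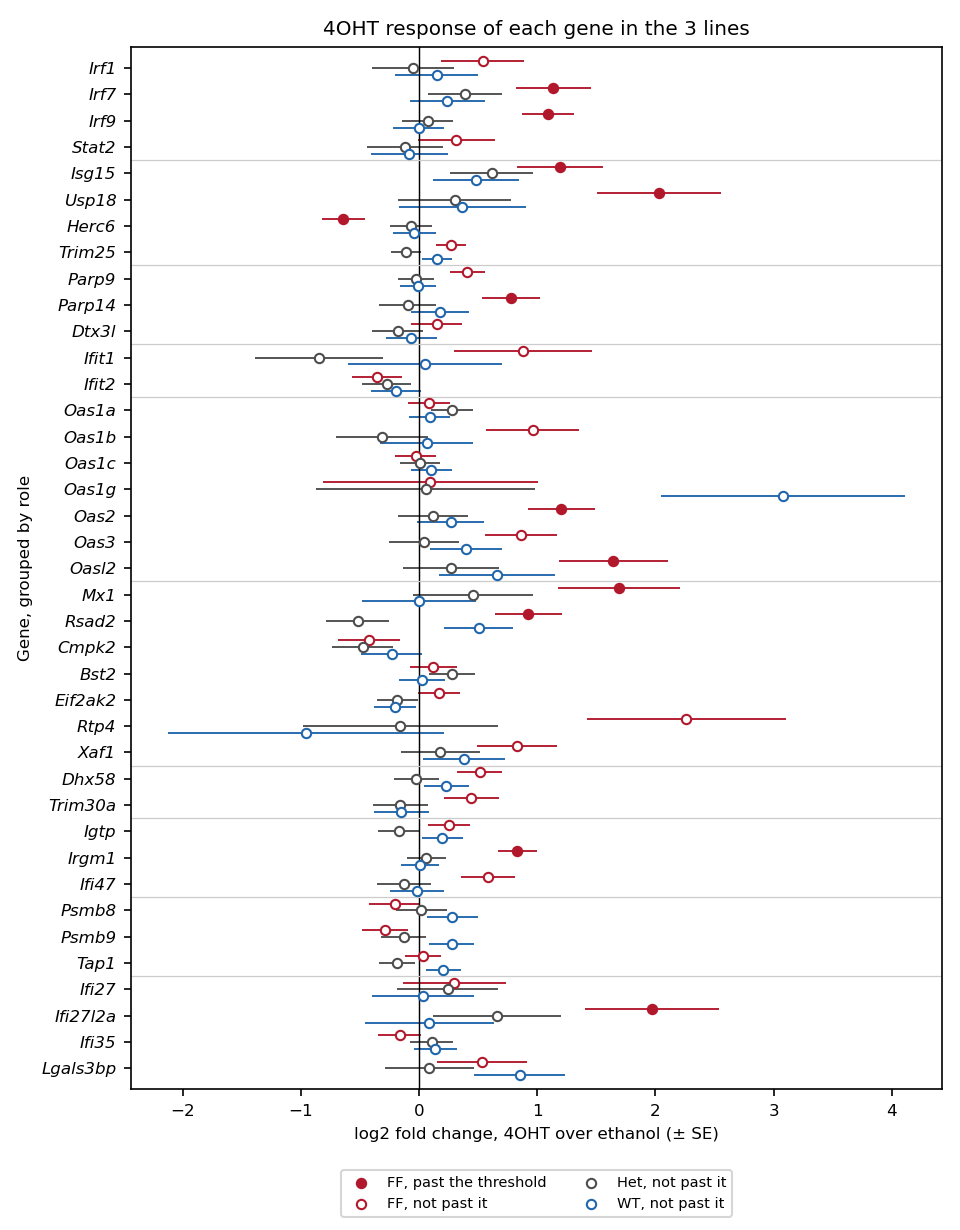
Log2 fold change of 4OHT over ethanol (horizontal axis, points with SE bars) for each tested gene (vertical axis, by role) in FF, Het and WT cells. Filled points pass the threshold: 12 in FF, led by Usp18 at 2.03, and none in Het or WT.

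Among the transcription factors, 2 of 4 rose. Irf9, the DNA-binding subunit of ISGF3 (chromosome 14, 55603571 to 55610030, plus strand, GRCm38), had 24.4, 30.3 and 37.1 CPM in FF_4OHT A, B and C, against 13.4, 13.3 and 16.4 CPM in FF_EtOH A, B and C. Every FF 4OHT library lay above every other library of the series for this gene. Its log2 fold change was 1.09 ± 0.22 SE (edgeR adjusted p = 0.00394), and it stayed past the threshold in all 28 alternatives tried, with adjusted p at most 0.0270. The annotated span of Irf9 overlaps that of Rnf31 on the same strand, and how reads in the overlap were assigned is not given in the sources used here. Irf7, the factor that drives type I interferon genes in many cells, had 4.84, 5.13 and 8.28 CPM in FF 4OHT libraries, against 3.39, 2.45 and 2.47 CPM in FF ethanol libraries. The groups did not overlap (log2 1.14 ± 0.32 SE, edgeR adjusted p = 0.0272). That call was lost without FF_EtOH B (adjusted p = 0.0902), FF_EtOH C (0.0823) or FF_4OHT C (0.157), and without both libraries that lie with the other line (0.0746). Irf7 overlaps Phrf1 on the opposite strand. Stat2, the ISGF3 subunit, had 52.3, 67.3 and 93.0 CPM in FF 4OHT libraries, against 45.3, 46.6 and 79.0 CPM in FF ethanol libraries, and the groups overlapped (log2 0.31 ± 0.32 SE, edgeR adjusted p = 0.573). Its highest library was the one lettered C in FF 4OHT, FF ethanol, WT 4OHT (77.9 CPM) and WT ethanol (93.5 CPM). Irf1, a factor induced by both interferon classes, followed the same letters, with 41.3, 30.9, 40.4 and 36.7 CPM in those 4 libraries, and had a log2 fold change of 0.54 ± 0.35 SE in FF (edgeR adjusted p = 0.345).

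ISG15 is a ubiquitin-like protein that is attached to other proteins by ligases such as mouse HERC6 and removed by USP18, which also damps signalling at the IFNAR receptor. Usp18 had 0.674, 1.27 and 1.33 CPM in FF 4OHT libraries, against 0.326, 0.391 and 0.0759 CPM in FF ethanol libraries. No FF 4OHT library fell within the FF ethanol range, although Het 4OHT libraries reached 0.964 CPM (FF log2 fold change 2.03 ± 0.53 SE, edgeR adjusted p = 0.0184). Omitting FF_EtOH C, FF_4OHT B or FF_4OHT C took the Usp18 call away (adjusted p = 0.0629, 0.0632 and 0.0807), as did omitting both libraries that lie with the other line (0.0593). Isg15 had 1.55, 1.66 and 1.91 CPM in FF 4OHT libraries, against 0.612, 0.711 and 0.911 CPM in FF ethanol libraries. The groups were apart (log2 1.19 ± 0.36 SE, edgeR adjusted p = 0.0406), but the call was lost when any 1 of the 6 FF libraries, WT_EtOH A or Het_EtOH C was left out, with adjusted p between 0.0529 and 0.129, and without both libraries that lie with the other line (0.0523). Herc6 moved the other way, with 14.8, 14.0 and 11.8 CPM in FF 4OHT libraries, against 23.4, 19.5 and 20.4 CPM in FF ethanol libraries. It was lower in all 3 FF 4OHT libraries (log2 -0.64 ± 0.18 SE, edgeR adjusted p = 0.0291). The Herc6 call was lost without FF_EtOH A (0.0955), FF_EtOH C (0.0541), FF_4OHT B (0.0849) or FF_4OHT C (0.164). Trim25, a ubiquitin ligase of the RIG-I pathway, did not pass (log2 0.27 ± 0.13 SE, edgeR adjusted p = 0.181).

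Parp14, a mono-ADP-ribosyltransferase, had 32.1, 41.0 and 48.4 CPM in FF 4OHT libraries, against 19.9, 30.1 and 20.8 CPM in FF ethanol libraries. The lowest FF 4OHT value was above the highest FF ethanol value by a small margin (log2 0.78 ± 0.25 SE, edgeR adjusted p = 0.0459). This was the weakest of the 12 calls, and 12 of the 18 single-library omissions removed it, with adjusted p up to 0.204 (without FF_4OHT C). It was also lost without both libraries that lie with the other line (edgeR adjusted p = 0.0983). Parp9 and its partner Dtx3l, which overlap each other on opposite strands, had log2 fold changes of 0.41 ± 0.15 SE and 0.15 ± 0.22 SE and did not pass (edgeR adjusted p = 0.0868 and 0.708), although Parp9 passed in DESeq2 (0.0385).

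The IFIT proteins bind viral RNA ends. Ifit2, the more abundant of the pair tested, had 9.67, 8.999 and 7.99 CPM in FF 4OHT libraries, against 9.99, 11.9 and 12.2 CPM in FF ethanol libraries. All FF 4OHT values were lower, but the difference did not pass (log2 -0.35 ± 0.21 SE, edgeR adjusted p = 0.299). Ifit1 averaged 0.539 CPM in FF 4OHT cells and 0.291 CPM in FF ethanol cells, with an adjusted p of 0.356 in edgeR. Ifit3 had 3 counts over the FF 4OHT libraries and 4 over the FF ethanol libraries.

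OAS enzymes make the short adenylate chains that activate RNase L. Of the 7 OAS family genes tested, 2 rose in FF cells, and Oas1b is annotated as a polymorphic pseudogene. Oas2 (chromosome 5, 120730333 to 120749853, minus strand, GRCm38) had 15.6, 19.1 and 23.4 CPM in FF 4OHT libraries, against 8.07, 8.46 and 8.65 CPM in FF ethanol libraries. These were the highest 3 values of the series, and WT 4OHT libraries reached 8.89 CPM. The Oas2 difference was 1.20 ± 0.29 SE on the log2 scale (edgeR adjusted p = 0.0117), and of 28 alternatives only omission of FF_4OHT C removed the call (adjusted p = 0.0710). Oasl2 averaged 0.886 ± 0.373 CPM in FF 4OHT cells and 0.281 ± 0.128 CPM in FF ethanol cells (SD, n = 3 each; log2 1.64 ± 0.46 SE, edgeR adjusted p = 0.0271). Its call was lost without FF_EtOH B (0.0742), FF_EtOH C (0.0996), FF_4OHT B (0.0601) or FF_4OHT C (0.153), in a fit to the FF libraries alone (0.0583), and without both libraries that lie with the other line (0.0915). Oas3 (log2 0.86 ± 0.30 SE, edgeR adjusted p = 0.0728) and Oas1b (log2 0.96 ± 0.39 SE, adjusted p = 0.117) did not pass, although Oas3 passed in DESeq2 (0.0325) and in an edgeR fit to the FF libraries alone (0.0259). Oas1a and Oas1c had log2 fold changes of 0.09 and -0.03. The Oas1 genes are related, and how reads matching several of them were assigned is not stated.

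Mx1, an antiviral GTPase of the nucleus in mice, had 1.43, 1.46 and 1.54 CPM in FF 4OHT libraries, against 0.367, 0.498 and 0.493 CPM in FF ethanol libraries. The groups were well apart, while Het_4OHT B, WT_4OHT A and B and WT_EtOH A each reached at least 1.01 CPM (FF log2 fold change 1.69 ± 0.51 SE, edgeR adjusted p = 0.0396). Omitting any 1 of the 6 FF libraries or Het_EtOH C removed the Mx1 call, with adjusted p between 0.0521 and 0.119. Rsad2 (viperin, which makes a chain-terminating nucleotide) had 1.27, 1.07 and 1.42 CPM in FF 4OHT libraries, against 0.530, 0.675 and 0.759 CPM in FF ethanol libraries. It was higher in each FF 4OHT library (log2 0.93 ± 0.29 SE, edgeR adjusted p = 0.0419), and omitting any 1 of the FF libraries, WT_EtOH A or B, WT_4OHT B or Het_EtOH C removed the call, with adjusted p between 0.0542 and 0.147. Cmpk2, the nucleotide kinase gene beside Rsad2 on chromosome 12, had a log2 fold change of -0.42 ± 0.26 SE that did not pass (edgeR adjusted p = 0.323). Bst2 (tetherin), Eif2ak2 (the kinase PKR), Rtp4 and Xaf1 did not pass, with log2 fold changes between 0.12 (Bst2) and 2.26 (Rtp4, at most 0.874 CPM in any library). Mx2, annotated as a polymorphic pseudogene, was not tested in the main fit. It had 7, 9 and 13 counts in FF_4OHT A, B and C, against 0, 1 and 1 counts in FF_EtOH A, B and C. The depth-scaled ratio of the Mx2 sums was 14.6, with an exact 95% counting interval of 3.70 to 126 that covers counting error only.

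Irgm1, a GTPase of vacuolar immunity and autophagy (chromosome 11, 48861968 to 48871683, minus strand, GRCm38), had 33.3, 39.5 and 44.4 CPM in FF 4OHT libraries, against 16.6, 28.2 and 21.1 CPM in FF ethanol libraries. All 12 Het and WT libraries lay between 21.1 and 25.7 CPM, below every FF 4OHT library. The Irgm1 difference was 0.83 ± 0.16 SE on the log2 scale (edgeR adjusted p = 0.00392) and passed in all 28 alternatives, with adjusted p at most 0.0289. The related GTPase genes Igtp (log2 0.25 ± 0.18 SE, edgeR adjusted p = 0.385) and Ifi47 (log2 0.59 ± 0.23 SE, adjusted p = 0.102) did not pass. Dhx58 (LGP2, a regulator of RNA sensing) and Trim30a did not pass either, at log2 0.51 and 0.44, although Dhx58 passed in DESeq2 (adjusted p = 0.0484) and Trim30a in an edgeR fit to the FF libraries alone (0.0452). Trim30a had 41.4, 43.6 and 39.1 CPM in FF 4OHT libraries, against 27.2, 35.3 and 28.8 CPM in FF ethanol libraries, and its groups did not overlap (edgeR adjusted p = 0.236).

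The antigen processing genes encode the immunoproteasome subunits Psmb8 and Psmb9 and the peptide transporter subunit Tap1, and none passed in FF cells. Psmb8 had 97.9, 108 and 107 CPM in FF 4OHT libraries, against 117, 143 and 101 CPM in FF ethanol libraries (log2 -0.20 ± 0.22 SE, edgeR adjusted p = 0.583). The groups overlapped for Psmb8. For Psmb9 the log2 fold change was -0.29 ± 0.19 SE and for Tap1 it was 0.03 ± 0.15 SE (edgeR adjusted p = 0.356 and 0.916). Ifi27l2a, a small membrane protein gene, had 2.06, 2.47 and 3.45 CPM in FF 4OHT libraries, against 0.326, 0.782 and 0.911 CPM in FF ethanol libraries. Its groups were apart (log2 1.97 ± 0.56 SE, edgeR adjusted p = 0.0306), and the call was lost without FF_EtOH A (0.111), FF_EtOH B (0.0674), FF_4OHT B (0.0599) or FF_4OHT C (0.115). Its neighbor Ifi27 did not pass (log2 0.30 ± 0.44 SE, edgeR adjusted p = 0.708), and neither did Ifi35 or Lgals3bp, while Ifi44 had 0 counts in all 18 libraries.

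**Figure D3:**
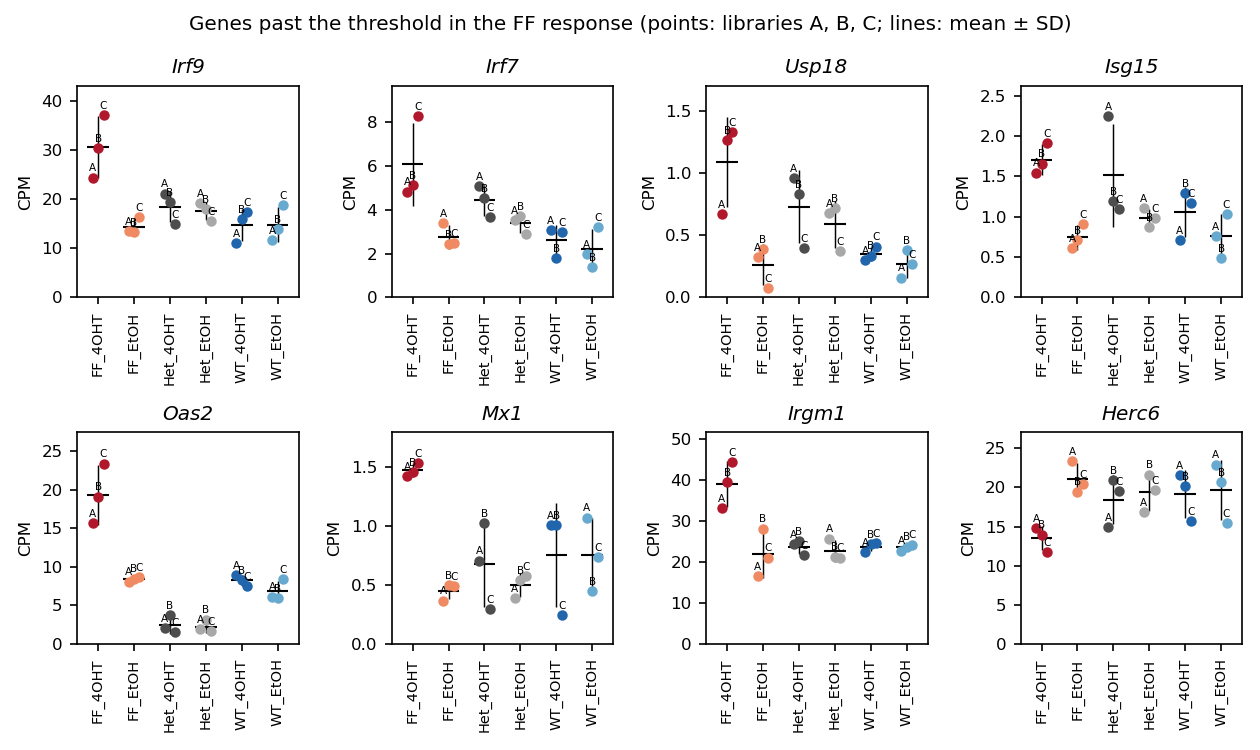
CPM (vertical axis) of 8 genes past the threshold in the FF response, by group (horizontal axis), with points for libraries A, B and C and lines for the mean ± SD. Irf9, Oas2 and Irgm1 were higher in all 3 FF 4OHT libraries than in any other library, and Herc6 was lower in FF 4OHT than in FF ethanol.

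By promoter letters, 3 of the 13 tested genes with an ISRE match were called higher in FF cells, with a median log2 fold change of 0.31. Of the 16 tested genes whose window lacks the letters, 3 were called higher and 1 lower, with a median of 0.21. Of the 10 tested genes with no window in the table, 5 were called higher, with a median of 1.08. A window without a match says only that these letters are not in it.

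In Het cells, 0 of the 39 tested genes passed for 4OHT against ethanol, where 0% of all genes were called higher and 0.0156% lower (edgeR). None of the 39 had an unadjusted p under 0.05, the median log2 fold change was -0.02, and DESeq2 and limma voom also called 0. In WT cells, 0 of the 39 passed, where 0% of all genes were called higher and 0% lower, and 2 had an unadjusted p under 0.05, Lgals3bp and Oas1g. DESeq2 and limma voom again called 0 in WT. The WT log2 fold change of Oas1g, 3.08 ± 1.03 SE, rests on WT_4OHT C and was -0.11 when the libraries labelled WT_4OHT C and FF_EtOH C were left out. For Lgals3bp it was 0.85 ± 0.39 SE, and 0.31 without them.

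The difference between responses was tested directly. For FF minus WT, 0 of the 39 genes passed in edgeR, where 0.412% of all genes were called higher and 1.89% lower, and 9 had an unadjusted p under 0.05. For FF minus Het, 0 passed, where 0.404% were called higher and 2.09% lower, and 11 had an unadjusted p under 0.05. The share of all genes under that unadjusted cutoff is not given here, so the 9 and 11 describe the list alone. The nearest to the adjusted threshold were Irf9, with a difference of 1.09 ± 0.30 SE against WT (edgeR adjusted p = 0.0769) and 1.02 ± 0.30 SE against Het (0.0932), and Irgm1, with 0.82 ± 0.23 SE against WT (0.0818) and 0.77 ± 0.23 SE against Het (0.0950). Rsad2 was nearest against Het, at 1.44 ± 0.39 SE (edgeR adjusted p = 0.0637). DESeq2 called Irf9 and Irgm1 in both differences (adjusted p = 0.0137 and 0.0155 against WT, 0.0228 and 0.0241 against Het) and also Rsad2 against Het (0.0262). Over all 12859 genes, DESeq2 called 177 higher and 466 lower against WT, and 222 and 510 against Het. A greater response in FF than in the other lines thus passed or missed the threshold depending on the tool, and FF minus WT shares the FF libraries with FF minus Het.

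Of the other genes of the pathway, the 21 ligand genes were almost silent. None was tested, 16 had 0 counts in all 18 libraries, Ifnb1 among them, and the summed level was at most 0.169 CPM in any library. Of 8 tested receptor and kinase genes, 3 rose in FF cells and none fell. Ifngr2, the signalling chain of the interferon gamma receptor, had 76.9, 83.0 and 99.6 CPM in FF 4OHT libraries, against 49.1, 50.7 and 48.3 CPM in FF ethanol libraries. All 3 FF 4OHT values were above every other library (log2 0.81 ± 0.16 SE, edgeR adjusted p = 0.00387), and this response differed from that of WT by 0.91 ± 0.22 SE (edgeR adjusted p = 0.0463). That difference did not pass without both libraries that lie with the other line (0.84 ± 0.26 SE, edgeR adjusted p = 0.152). Il10rb, a receptor chain shared by interferon lambda and IL-10, and Ifnar1 rose by 0.49 ± 0.11 SE and 0.50 ± 0.11 SE on the log2 scale (edgeR adjusted p = 0.00705 and 0.00862), and the Ifnar1 call was lost without FF_4OHT C (0.0687).

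Of 8 tested STAT and IRF genes outside the list, Irf5 alone rose, with 25.1, 29.4 and 36.5 CPM in FF 4OHT libraries, against 15.01, 11.9 and 18.9 CPM in FF ethanol libraries (log2 0.99 ± 0.29 SE, edgeR adjusted p = 0.0310). Irf5 in WT cells ranged up to 30.5 CPM in 4OHT, and 2 of the 3 FF 4OHT libraries lay within that range. Without FF_EtOH A (0.0838), FF_EtOH B (0.114), FF_4OHT B (0.0666) or FF_4OHT C (0.136) the Irf5 call was lost. Among 9 inhibitor genes, Socs3, a feedback inhibitor of JAK kinases, rose by 1.38 ± 0.33 SE on the log2 scale (edgeR adjusted p = 0.0116) beside Usp18. Of 14 tested sensor genes, 3 rose: Tlr7, the endosomal sensor of single-stranded RNA (log2 2.12 ± 0.47 SE, edgeR adjusted p = 0.00744), Ddx58, which encodes RIG-I (0.60 ± 0.15 SE, 0.0140), and Zbp1, a sensor of Z-form nucleic acids (1.44 ± 0.42 SE, 0.0313). The Ddx58 call was lost without FF_EtOH B, FF_EtOH C or FF_4OHT C (adjusted p = 0.0591, 0.0581 and 0.0687) and without both libraries that lie with the other line (0.0574), and that of Zbp1 without FF_EtOH A, FF_EtOH C, FF_4OHT B or FF_4OHT C (0.0831, 0.108, 0.0645 and 0.150).

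Of 52 other interferon-induced genes tested, 11 rose and 2 fell in FF cells. Slfn5, a Schlafen family gene, had 17.7, 18.9 and 23.1 CPM in FF 4OHT libraries, against 5.22, 7.68 and 4.29 CPM in FF ethanol libraries. It was above all other libraries in FF 4OHT (log2 1.79 ± 0.35 SE, edgeR adjusted p = 0.00368). The 2 that fell were Pml, the scaffold of nuclear bodies (log2 -0.80 ± 0.12 SE, edgeR adjusted p = 0.000533), and Tap2, the partner of Tap1 (log2 -0.81 ± 0.17 SE, adjusted p = 0.00518). Both responses also differed from WT, by -0.73 ± 0.17 SE for Pml and -0.93 ± 0.24 SE for Tap2 (edgeR adjusted p = 0.0326 and 0.0497). WT_4OHT C was high for Tap2 in its group, at 296.5 CPM, against 171 and 188 CPM in WT_4OHT A and B. With WT_4OHT C and FF_EtOH C both omitted, the difference was -0.76 ± 0.16 SE for Tap2 (edgeR adjusted p = 0.0426) and -0.70 ± 0.18 SE for Pml, which no longer passed (0.0853). Both genes were also lower in every Het 4OHT library than in every Het ethanol library. Pml had 71.2 to 85.2 CPM in Het 4OHT and 93.2 to 104.6 CPM in Het ethanol libraries. For Tap2 these ranges were 241.7 to 297.8 CPM and 333.5 to 365.5 CPM. The FF minus Het difference of these genes is not given here.

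Some markers of other cell types moved with the FF response. Of 21 tested monocyte and macrophage markers, 8 rose and none fell, with a median log2 fold change of 0.86, and none of the 21 was at 0 counts throughout. Their summed level was 4448 to 5545 CPM in FF 4OHT libraries and 3038 to 3746 CPM in FF ethanol libraries, 2620 to 4663 CPM in Het 4OHT and 3315 to 4985 CPM in Het ethanol libraries, and 3211 to 3467 CPM in WT 4OHT and 3059 to 3202 CPM in WT ethanol libraries. Of 13 progenitor markers, 2 fell, Mpo and Myb, and the summed level was 7432 to 8367 CPM in FF 4OHT libraries and 9260 to 12850 CPM in FF ethanol libraries. Neutrophil markers summed to 1155 to 1913 CPM in FF 4OHT and 713.7 to 1614 CPM in FF ethanol libraries. For mast cell and basophil markers these sums were 17.1 to 30.5 CPM and 24.4 to 29.4 CPM. Among neutrophil markers, Mmp8 had 1685 to 3230 counts in FF 4OHT and 175 to 536 in FF ethanol libraries, while Camp overlapped. Plasmacytoid dendritic cell markers, of a cell type known for high interferon output, summed to 15.4 to 20.8 CPM in FF 4OHT libraries and 14.9 to 22.2 CPM in FF ethanol libraries. Nearly all of that was Tcf4, and the defining markers Siglech and Ccr9 were at 0 CPM in all 6 FF libraries, while Cox6a2, which is low in these cells, fell. The part of any of these cell types in the response of the interferon-stimulated genes was not tested. In bulk RNA a change in the share of a cell type cannot be told apart from a change in RNA per cell.

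Before induction, the Het line differed from the WT line at many interferon-stimulated genes. In ethanol, 11 of the 39 tested genes were higher in the Het line and 2 lower (edgeR), where 13.3% of all genes were called higher and 10.4% lower. The higher genes were Lgals3bp, Oasl2, Rsad2, Ifit1, Psmb8, Psmb9, Tap1, Xaf1, Cmpk2, Igtp and Trim25, and the lower ones Oas2 and Oas1a. Of these, Oasl2 and Rsad2 were also called in the FF response, as was Oas2, in the opposite direction. The median log2 difference was 0.42 over the 39 genes and -0.03 over all genes.

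The antigen processing genes, which had not passed in any 4OHT response, were all 3 higher in the Het line. Psmb9 (chromosome 17, 34181987 to 34187764, minus strand, GRCm38) had 46.1, 48.0 and 47.5 CPM in Het ethanol libraries, against 21.2, 21.4 and 23.4 CPM in WT ethanol libraries. The groups were far apart and tight (log2 1.10 ± 0.19 SE, edgeR adjusted p = 0.000612). Psmb8 averaged 210 ± 4.16 CPM in Het ethanol cells and 98.9 ± 2.89 CPM in WT ethanol cells (SD, n = 3 each; log2 1.09 ± 0.22 SE, edgeR adjusted p = 0.00167). For Tap1 the log2 difference was 0.97 ± 0.15 SE (edgeR adjusted p = 0.000276), and Tap1 and Psmb9 overlap on opposite strands. Outside the list, Nlrc5, the transactivator of MHC class I genes (log2 2.53 ± 0.43 SE, edgeR adjusted p = 0.000469), Tap2 (0.79 ± 0.17 SE, 0.00255) and B2m, the light chain of MHC class I (0.64 ± 0.20 SE, 0.0301), were also higher in the Het line, where 16 of the 52 other interferon-induced genes were higher and 2 lower.

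Lgals3bp, a secreted glycoprotein that binds galectins, had 72.5, 79.0 and 53.8 CPM in Het ethanol libraries, against 12.9, 13.4 and 19.4 CPM in WT ethanol libraries. All Het values were above all WT values (log2 2.17 ± 0.40 SE, edgeR adjusted p = 0.000894). Rsad2 had 2.19, 1.83 and 1.955 CPM in Het ethanol libraries, against 0.517, 0.449 and 0.503 CPM in WT ethanol libraries, and the groups were again apart (log2 2.02 ± 0.29 SE, edgeR adjusted p = 0.000118). Cmpk2, beside it, differed by 0.85 ± 0.26 SE (edgeR adjusted p = 0.0254). Oas2 ran the other way, with 1.95, 3.16 and 1.65 CPM in Het ethanol libraries, against 6.12, 5.97 and 8.43 CPM in WT ethanol libraries (log2 -1.60 ± 0.30 SE, edgeR adjusted p = 0.000974). Oas1a had 23.9, 20.2 and 22.6 CPM in Het ethanol libraries, against 32.0, 32.7 and 41.4 CPM in WT ethanol libraries (log2 -0.67 ± 0.18 SE, edgeR adjusted p = 0.0108). Both genes were lower in every Het ethanol library, so the OAS family did not differ between these lines in a single direction. With 1 of the 6 ethanol libraries of these lines left out, 8 of the 13 genes kept the call in each fit. Xaf1 lost it without any of the 6, Trim25 without WT_EtOH A or B or Het_EtOH A or C, Cmpk2 without any WT ethanol library or Het_EtOH A, Ifit1 without WT_EtOH A or B or Het_EtOH A or B, and Oas1a without WT_EtOH C or Het_EtOH B, with adjusted p between 0.0506 and 0.157 over these fits. Neutrophil markers differed alongside, with 9 of 11 lower in the Het line and summed levels of 224 to 408 CPM in Het ethanol and 1264 to 1489 CPM in WT ethanol libraries. Plasmacytoid dendritic cell markers summed to 26.2 to 44.6 CPM in Het ethanol and 14.4 to 20.8 CPM in WT ethanol libraries, and both tested, Tcf4 and Cox6a2, were higher in the Het line (log2 1.121 and 0.96), while Siglech was at 0 CPM in all 18 libraries. Of 21 monocyte and macrophage markers 1 was higher and 3 lower, and of 13 progenitor markers 1 was higher and 6 lower. The part of these markers in the difference was not tested.

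Between the FF and WT lines in ethanol, 0 of the 39 genes passed in edgeR, where 0% of all genes were called higher and 0% lower, and 2 had an unadjusted p under 0.05. DESeq2 and limma voom also called 0. With the libraries labelled WT_4OHT C and FF_EtOH C left out, the log2 difference was 4.26 for Oas1g and 1.31 for Lgals3bp. Both libraries were singled out by the values of these genes, so these differences are a description and no test. Over all 13041 genes of that fit, 418 were called higher in the FF line and 196 lower. The 0 calls with all 18 libraries are therefore no evidence that the lines are alike. Oas1g, whose promoter stretch is shown above beside that of Oas1a, had 12.2, 12.7 and 12.2 CPM in FF 4OHT libraries, 3.22 to 5.46 CPM in Het libraries, and 0.69 to 1.09 CPM in WT ethanol libraries. It thus separated the lines, apart from libraries labelled WT_4OHT C and FF_EtOH C, while Oas1a overlapped between FF and WT. Between the Het and WT lines, Oas1g differed by 2.17 ± 1.02 SE on the log2 scale with all 18 libraries and did not pass (edgeR adjusted p = 0.1415). It was called in a fit to the Het and WT ethanol libraries alone, where 2082 of all 12320 genes were higher and 1378 lower. Oas1g was also called without WT_4OHT C, alone or together with FF_EtOH C. Its values singled those libraries out, so the calls from these omissions are a description and no test.

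**Figure D4:**
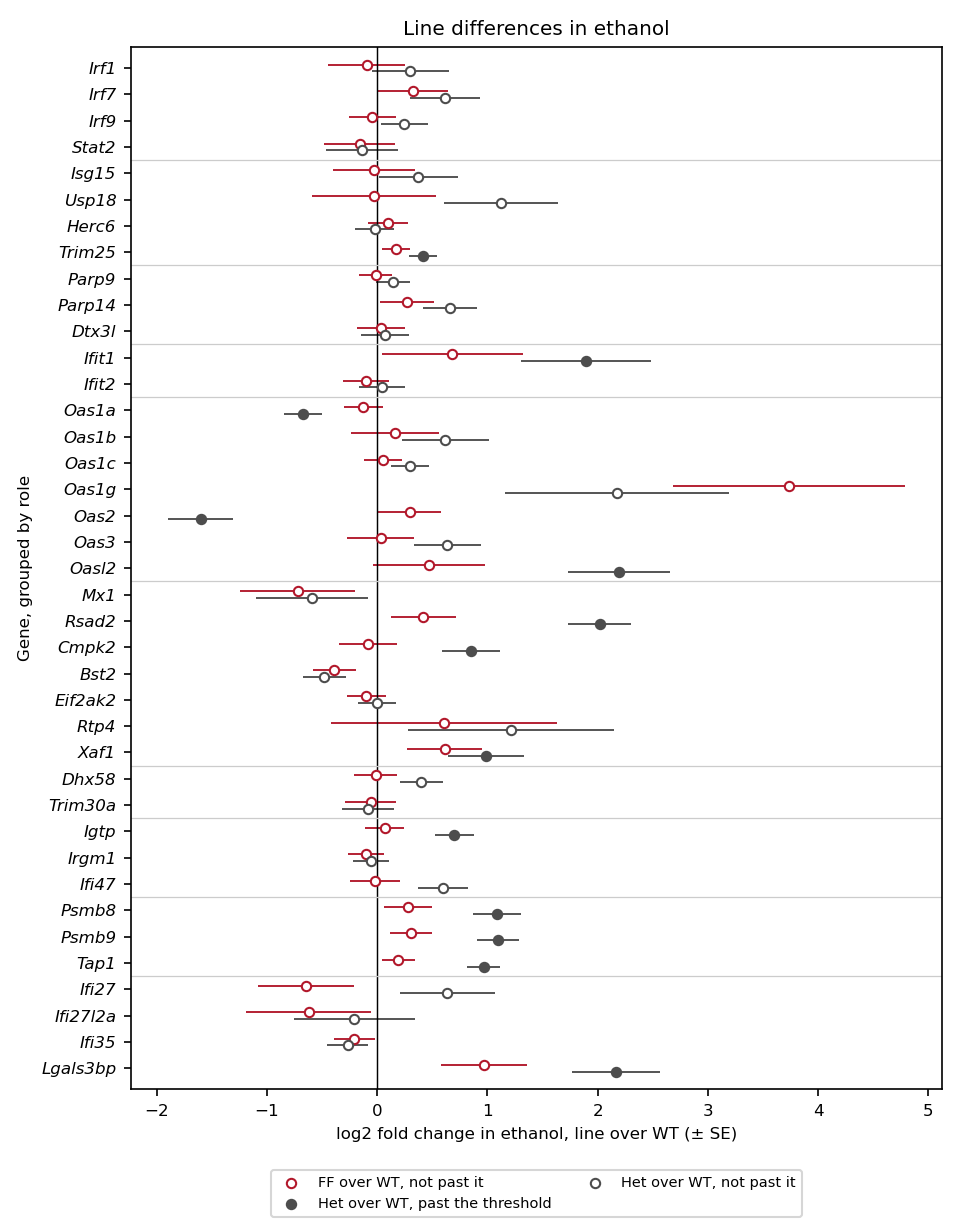
Log2 fold change in ethanol of the FF or Het line over the WT line (horizontal axis, points with SE bars) for each tested gene (vertical axis, by role), with all 18 libraries. Filled points pass the threshold: 13 for Het, from Oas2 at -1.60 to Oasl2 at 2.19, and none for FF.

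**Figure D5:**
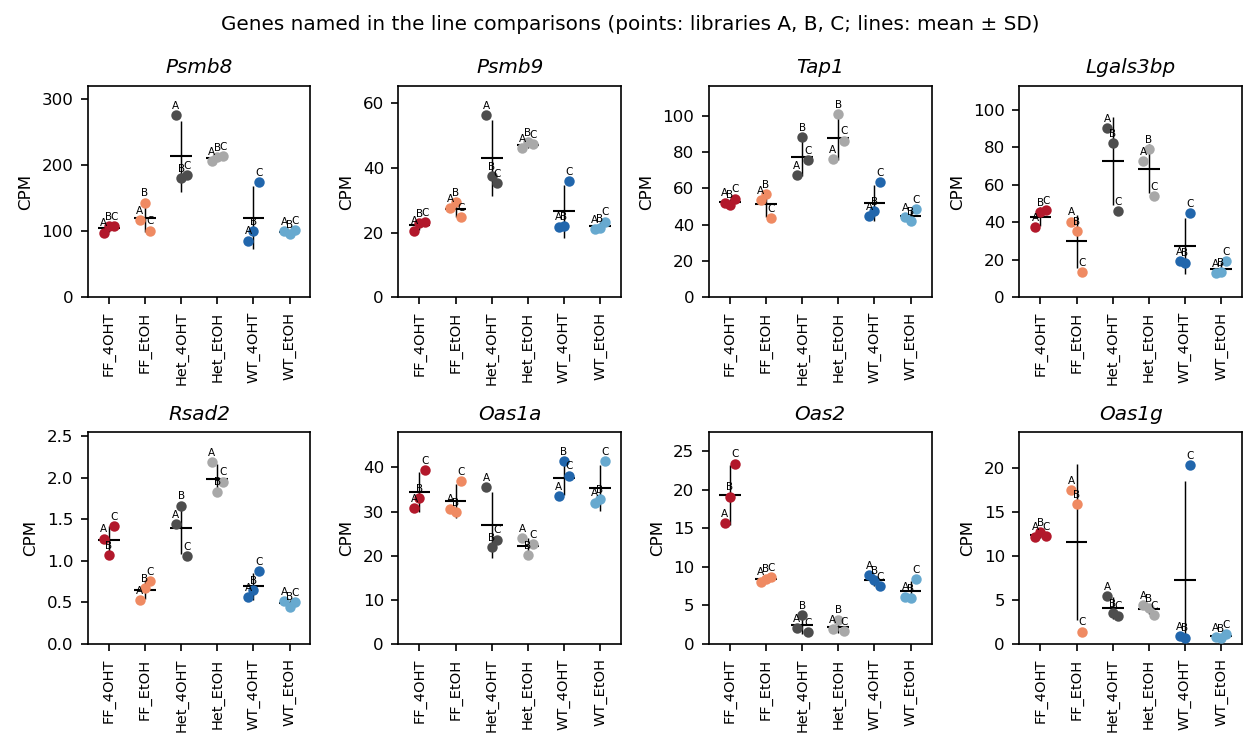
CPM (vertical axis) of 8 genes of the line comparisons, by group (horizontal axis), with points for libraries A, B and C and lines for the mean ± SD, drawn down to 0 at most. For Oas1g the libraries labelled FF_EtOH C (1.404 CPM) and WT_4OHT C (20.3 CPM) lie at the level of the other line.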

How the data were processed

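The authors deposited raw counts of reads for each gene, as whole numbers without normalization. The tools named in the submitters' processing notes are HISAT2 2.0.5, featureCounts 1.5.2 of Subread, FastQC 0.11.7 and CASAVA 1.4, and the build named is mm10. The library kit, strand setting, annotation and treatment of reads matching several places are not stated in the labels. No 2 libraries agreed within sampling noise (smallest chi-square per gene over 153 pairs, 8.82). Counts were fitted with edgeR 4.0.16 in R 4.3.3 (1 mean per group over 18 libraries, TMM, filterByExpr with minimum count 10, robust quasi-likelihood test), with Benjamini-Hochberg adjustment over 12859 genes and a threshold of 0.05. SEs derive from the F statistic. The fit was also run on simulated counts with 200 genes changed in FF 4OHT and the same spread for every gene. No outlying library was simulated, so that run does not cover libraries such as FF_EtOH C and WT_4OHT C.

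Members and lists were chosen with earlier results of these data known. Values per library are given, by role, for at most 3 members called in FF, by lowest adjusted p, that reach 1 CPM (or the most abundant), for the 3 largest line differences in each direction, and for up to 3 genes of a pathway list. Stat2, Trim30a and Oas1g and other genes given in passing were named after their values were seen.

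Letters were checked as pairs by correlating deviations from group means. These were 0.476, 0.697 and 0.402 in Het, 0.167, 0.182 and 0.067 in FF, and 0.389, -0.023 and 0.250 in WT. The correlations were highest in Het, but 0.389 for letter A in WT was close to 0.402 for letter C in Het. The C values of FF and WT also involve FF_EtOH C and WT_4OHT C. Whether letters mark pairs in FF and WT is therefore not settled by these values. The replicate block called 0 members in the Het and WT responses.

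Alternatives were DESeq2 size factors, library totals, no filter, a filter of 5 CPM in 3 libraries, DESeq2 1.42.0, limma voom 3.58.1, compared groups alone, a replicate block and each library left out. Fits without FF_EtOH C and WT_4OHT C, and without these and WT_EtOH C, were added after the data were seen. Coordinates are GENCODE M21 (GRCm38, the assembly of mm10), and promoters are RefSeq.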

Additional observations from a re-analysis of the deposited data

How the results depend on the processing

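The FF response, with 12 genes called, had 6 with a filter of 5 CPM in 3 libraries, which left 30 of the genes tested, 7 when the libraries labelled WT_4OHT C and FF_EtOH C were omitted, and 2 to 13 with single libraries left out, and the cause was not tested. Over all genes, the filter of 5 CPM gave 607 higher and 884 lower of 10127. Single omissions gave 250 to 1070 higher and 450 to 1591 lower over all genes. FF minus WT, with 0 called, had 2 with DESeq2 (Irf9 and Irgm1), 3 with a replicate block (these and Herc6) and 0 to 1 with single libraries left out. Over all genes, DESeq2 called 177 higher and 466 lower and the block 211 and 419, against 53 and 243 in the main fit. FF minus Het, with 0 called, had 3 with DESeq2 (Irf9, Irgm1 and Rsad2), 4 with a replicate block (Irf9, Irgm1, Irf1 and Oas2) and 0 to 2 with single libraries left out. For FF minus Het over all genes, DESeq2 called 222 higher and 510 lower and the block 287 and 468, against 52 and 269. FF against WT in ethanol, with 0 called, had 2 without the libraries that lie with the other line (Oas1g and Lgals3bp, whose values singled these libraries out, so the count tests nothing), 2 when WT_EtOH C was left out too, and 0 to 1 with single libraries left out. Over all genes, omitting the libraries that lie with the other line gave 418 higher and 196 lower. Omitting WT_EtOH C too gave 352 higher and 127 lower. Single genes of the FF response were also lost without a count filter (Isg15, Parp14, Mx1 and Rsad2, adjusted p = 0.0640, 0.0536, 0.0504 and 0.0922) and with limma voom (Parp14, Mx1 and Rsad2, 0.0512, 0.0524 and 0.0611). The fit without a count filter gained Mx2, and over all 17748 genes it called 530 higher and 917 lower. A fit to the FF libraries alone called 12, gaining Oas3 and Trim30a and losing Rsad2 and Oasl2 (0.0714 and 0.0583), DESeq2 called 15, gaining Oas3, Parp9 and Dhx58, and scaling by library totals alone lost Parp14 (0.0539). Over all genes, the FF libraries alone gave 931 higher and 1053 lower of 12030. DESeq2 gave 993 and 1282 of 12859, against 663 and 1066 in the main fit. The Het line difference, with 13 called, ranged over 9 to 16. Over all genes, the same alternatives gave 1194 to 2185 higher and 835 to 1889 lower. The 4OHT responses in Het and WT called 0 under every alternative run. The replicate block called 17 genes in FF, gaining Ifi47, Irf1, Dhx58, Oas3 and Oas1b, where 1254 of all 12859 genes were called higher and 1509 lower. Its letters correlated weakly in FF and unevenly in WT, and whether they mark pairs there is not settled. The block is therefore given as a fit with shared letters only. Scaling by library totals alone moved the median of all genes in the Het line difference to 0.10, with 2185 genes higher and 900 lower, against -0.03, 1714 and 1335. No direction of the 28 gene results given with calls or values by rule reversed in any alternative run, and the replicate block was not fitted to the line comparisons. Depth limits Usp18, Isg15, Mx1, Rsad2, Oasl2 and Ifi27l2a, all under 4 CPM in each FF library.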
